A study of Homo sapiens with 6 samples.

Results

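Clusters of TRMT10A crosslinking that lay in the coding sequence of messenger RNAs were examined in the 2 CLIP replicates of the series. A cluster was taken when the authors' table placed it in coding sequence (Location CDS) on a line with a RefSeq messenger RNA accession. Genes with symbols beginning RPL, RPS or HIST were left out, and each cluster was counted once per replicate. This gave 225 of 1675 listed clusters in replicate 1 and 448 of 2183 in replicate 2. The CLIP libraries were made from HEK293T, a widely used cell line derived from human embryonic kidney, and both carried the siRNA label TRMT10A. The labels do not say whether TRMT10A was depleted or added in these cells, nor whether the replicates were separate cultures. The series also held 4 m6A-immunoprecipitation and input libraries after knockdown of TRMT10A or a control knockdown, of which only the list of genes with m6A peaks is used here. No control immunoprecipitation was analysed here and the tables give no RNA levels, so event counts cannot be set against the abundance of each mRNA, and the HEK293T label could not be checked against marker genes.

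TRMT10A is a methyltransferase known for modifying guanosine at position 9 of transfer RNAs. CLIP crosslinks a protein to RNA in cells, precipitates it and sequences the RNA fragments that remain bound, and clusters are short stretches where such fragments pile up. In some CLIP protocols crosslinked bases are read as another base, and such changes are counted as conversion events. The labels analysed here do not name the CLIP protocol. Coding sequence is the part of an mRNA read by ribosomes, and abundant mRNAs can give more CLIP fragments than rare ones.

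Most coding clusters rested on the fewest events the tables list, and a short list of mRNAs carried the strong sites. The sequences below are the stretches shared by overlapping clusters of both replicates at leading recurring sites (the 10 pairs with the highest smaller event count) and in TRMT10A itself. The leading sites are shown because they had the most events in both replicates, and those of TRMT10A, with few events, because it is the precipitated protein's own mRNA. All are from GENCODE release 29 transcripts (GRCh38, the same assembly as hg38), written 5′ to 3′ as RNA, with capitals for CUCU and GACU, the 4-base words described further on. Shared stretches under 12 or over 30 bases, or reaching outside coding sequence, were not printed.
GAPDH, chr12:6537931-6537956, plus strand: cuccuccaccuuugacgcuggggcug
GNB2L1, chr5:181242176-181242202, minus strand: ggaacccugcgcCUCUgggaucucaca
MIF, chr22:23894803-23894822, plus strand: ucauggccuucggcggcucc
EEF2, chr19:3980572-3980596, minus strand: uccacuggccugaaggucaggauca
EEF2, chr19:3980607-3980618, minus strand: acgagucuucuc
PRRC2A, chr6:31636908-31636927, plus strand: cugccaggcccuuccccgcu
GNB2L1, chr5:181239488-181239506, minus strand: gcugggacaagcuggucaa
VIM, chr10:17229660-17229681, plus strand: cugcagGACUcggugGACUucu
TRMT10A, chr4:99558073-99558085, minus strand: uauuGACUguagu
TRMT10A, chr4:99558054-99558069, minus strand: gaucacuugaugguau

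The coding clusters were 13.4% of all listed clusters in replicate 1 (95% Wilson interval 11.9 to 15.1) and 20.5% in replicate 2 (18.9 to 22.3). They held 702 of 342690 conversion events in replicate 1 and 1342 of 496030 in replicate 2, which is 0.205% and 0.271%. Replicate 2 thus had 1.30 times the clusters and 1.45 times the events of replicate 1 over all clusters. For coding clusters the ratios were 1.99 in clusters and 1.91 in events. Intervals here and below cover counting error only. With 2 replicates of 1 group no test between conditions was possible, and none is given.

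The leading sites are best seen along their mRNAs. EEF2 encodes a translation elongation factor that drives ribosome translocation. It had 14 coding clusters with 68 events in replicate 1 and 16 with 83 events in replicate 2, the placed ones lying between coding positions 104 and 2204 of 2574. In each replicate 12 of them overlapped a cluster of the other replicate. Over all listed clusters, 71.4% of replicate 1 and 56.3% of replicate 2 did so. Its strongest cluster of replicate 1, with 17 events at chr19:3977474-3977500 in exon 13 of 15, had no counterpart in replicate 2.

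GNB2L1, now named RACK1 and encoding a scaffold protein of the small ribosomal subunit, had 8 coding clusters with 39 events and 12 with 91 events. A single site at coding positions 251 to 281, in exon 2 of 8, accounted for 12 of these events in replicate 1 and 28 in replicate 2. A cluster with 11 events at chr5:181242320-181242353, across an exon boundary, was listed in replicate 2 but not in replicate 1.

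GAPDH, a glycolytic enzyme, had 41 coding events in each replicate, from 3 clusters in replicate 1 and 8 in replicate 2. One stretch of exon 8, beginning at coding position 873 in both replicates, gave 35 of them in replicate 1 and 22 in replicate 2. This was the strongest coding cluster of replicate 1. The other GAPDH clusters had 2 to 4 events.

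MIF, a small secreted cytokine with only 345 coding bases, had 29 and 30 events in replicates 1 and 2. Its strongest cluster spanned the start codon, with 15 and 14 events, and covered the first 19 (replicate 1) and 27 (replicate 2) coding bases. The MIF site printed above followed with 8 and 9 events.

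The transcript of TRMT10A carried 5 coding clusters with 11 events in replicate 1 and 8 with 26 events in replicate 2. All had few events, between 2 and 3 in replicate 1 and between 2 and 7 in replicate 2. In exon 3 of 8, 2 clusters of replicate 1 (coding positions 274 to 310 and 312 to 343) overlapped 2 of replicate 2 (278 to 324 and 328 to 345). The labels do not say whether a TRMT10A construct was added, so reads from a construct and from the cells' own mRNA cannot be told apart.

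**Figure D1:**
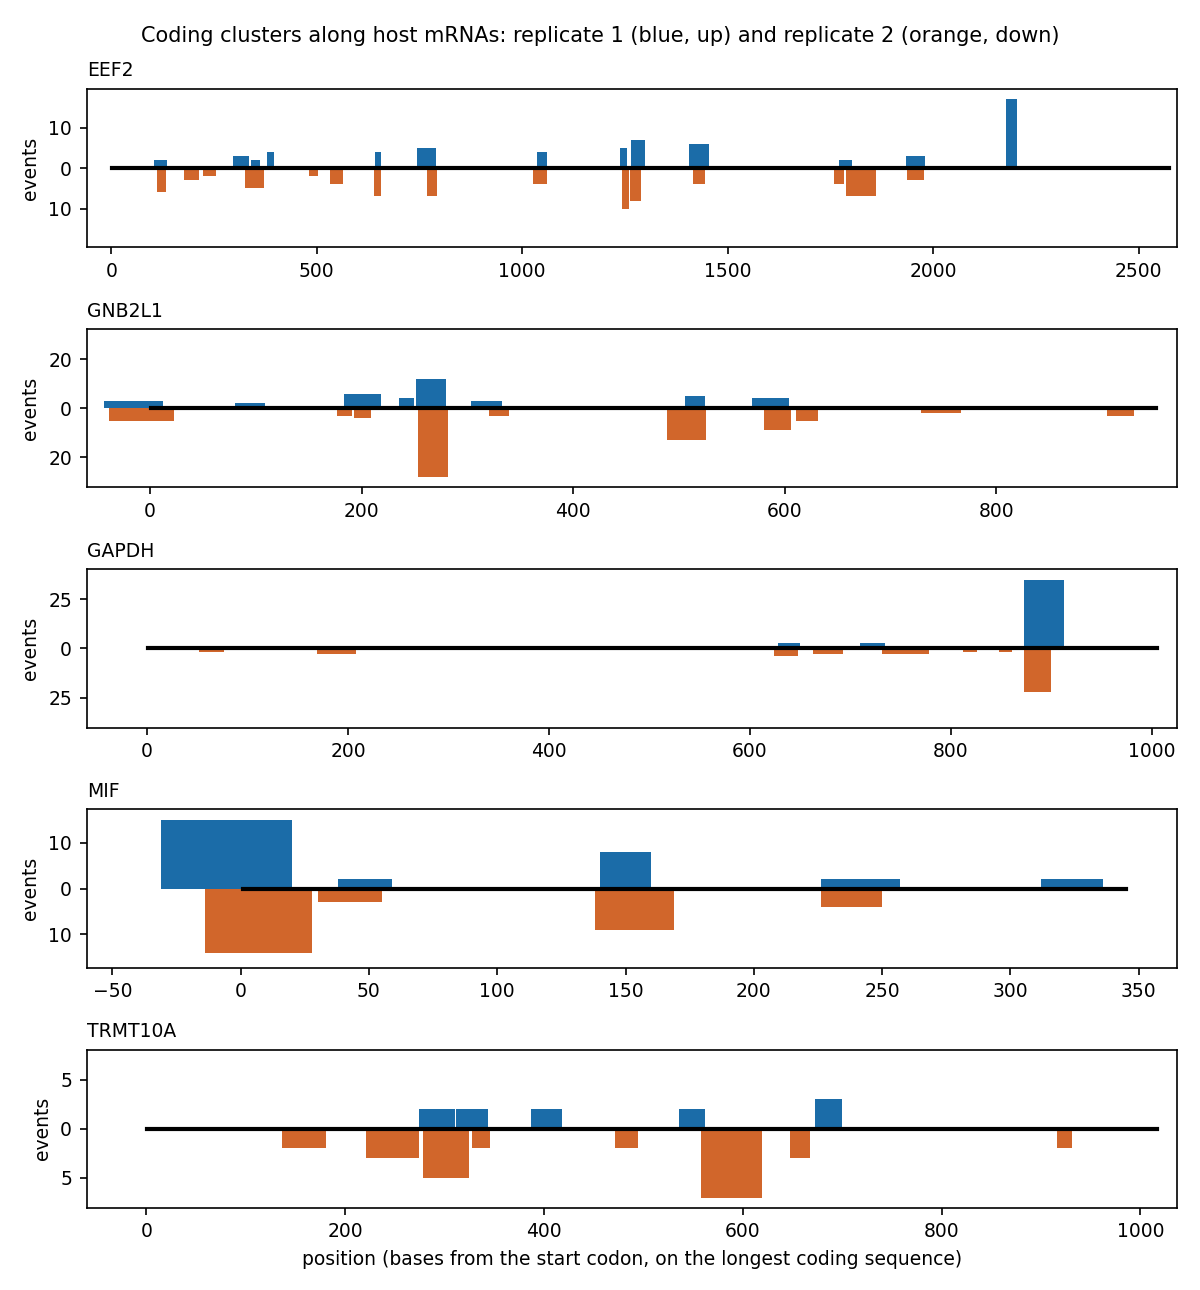
Coding clusters of EEF2, GNB2L1, GAPDH, MIF and TRMT10A along their coding sequence (black line). The x axis gives bases from the start codon and the bar height the conversion events of the cluster, with replicate 1 drawn upward in blue and replicate 2 downward in orange. The GAPDH cluster that begins at position 873 had 35 and 22 events, and the EEF2 cluster with 17 events had no counterpart in replicate 2. Clusters across an exon boundary are not drawn.

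Coding clusters were short and alike in length in both replicates. The median was 26 bases in each, with quartiles of 20 and 33 in replicate 1 and 21 and 33 in replicate 2. Lengths ran from 11 to 84 bases in replicate 1 and from 11 to 75 in replicate 2. Clusters in 3′ UTRs, chosen with the same exclusions, had medians of 24 and 23 bases and those in 5′ UTRs of 20.5 and 27. The longest coding clusters had between 2 and 7 events. ZNF703, a transcriptional regulator, had the longest of replicate 1 (84 bases, 2 events), followed by a pair in the tubulin gene TUBB (61 bases each, 4 and 3 events). In replicate 2 the longest were in EEF2 (75 bases, 7 events), the fatty acid synthase gene FASN (73 bases, 2 events) and GNB2L1 (62 bases, 5 events). The median length was 25 bases at 2 events and 35.5 at 5 to 9 events in replicate 1, and 24 and 33 in replicate 2. Between these, at 3 and 4 events, it was 28 and 27 bases in replicate 1 and 27 at both in replicate 2. At 10 or more events it was 29 and 31.5 bases (5 and 8 clusters).

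**Figure D2:**
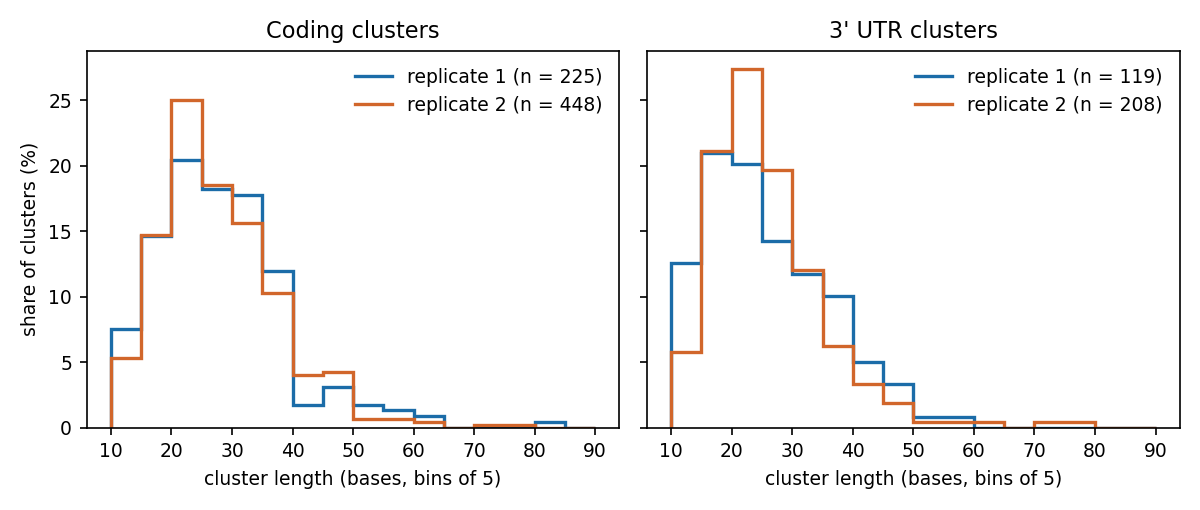
Length of coding clusters (left) and 3′ UTR clusters (right) in bins of 5 bases, as a share of the clusters of each replicate. Blue lines are replicate 1 and orange lines replicate 2. The coding medians were 26 bases in both replicates and the 3′ UTR medians 24 and 23.

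Conversion events per coding cluster were low. The median was 2, the lowest number any listed cluster had, and the upper quartile was 3 in both replicates. In replicate 1, 57.3% of coding clusters had 2 events, and in replicate 2 60.0%. Clusters with at least 5 events numbered 27 (12%) and 49 (10.9%), and those with at least 10 events 5 and 8. The highest count was 35 in replicate 1, in GAPDH, and 28 in replicate 2, in GNB2L1. In 3′ UTRs 51.3% and 56.7% of clusters had 2 events. Per kilobase of covered sequence, coding clusters held 113 and 109 events and 3′ UTR clusters 126 and 129.

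The clusters were spread over 141 host genes in replicate 1 and 272 in replicate 2. A single coding cluster was found in 75.9% of host genes of replicate 1 (95% Wilson interval 68.2 to 82.2) and 75.7% of replicate 2 (70.3 to 80.4). For 3′ UTR clusters the shares were 86.6% and 84.5%. At least 3 coding clusters were found in 17 and 39 genes, and at least 5 in 8 and 14. The genes with the highest mean number of coding clusters were EEF2, GNB2L1, TRMT10A, PRRC2A and ACTB. Clusters of a gene share its transcript and are not independent. Events were concentrated: the 10 genes with most events held 38.0% of coding events in replicate 1 and 28.6% in replicate 2.

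Ranked by the mean of their ranks in both replicates, EEF2, GNB2L1, GAPDH and MIF were followed by PRRC2A, an RNA-binding protein named among readers of m6A (16 and 26 events in replicates 1 and 2). The cytoplasmic actin genes ACTG1 (25 and 24 events) and ACTB (13 and 23) came next, then TRMT10A (11 and 26). PKM, a glycolytic enzyme, had 13 and 15 events. The deubiquitinase gene USP22 had 9 and 13 coding events, and PARP1, which encodes a DNA damage sensor, had 11 and 10.

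Per kilobase of coding sequence the order changed. MIF stood first in replicate 1 with 84.1 events per kilobase and second in replicate 2 with 87.0. Of its events, 15 and 14 came from the cluster that spanned the start codon and reached outside the coding bases. Another 3 MIF clusters of replicate 1 and 2 of replicate 2 matched a transcript of another gene without mismatch. GNB2L1 had 41.0 and 95.7, GAPDH 40.8 in both replicates, and EEF2 26.4 and 32.2. ACTG1 had 22.2 and 21.3, ACTB 11.6 and 20.4, and TRMT10A 10.8 and 25.6. These values are not scaled for the coding events of replicate 2, 1.91 times those of replicate 1. Unscaled, GNB2L1, ACTB and TRMT10A were higher in replicate 2, whereas MIF, GAPDH and ACTG1 differed little between the replicates. As shares of all coding events, GNB2L1 went from 5.56% in replicate 1 to 6.78% in replicate 2 and TRMT10A from 1.57% to 1.94%. ACTB went from 1.85% to 1.71%, GAPDH from 5.84% to 3.06%, MIF from 4.13% to 2.24% and ACTG1 from 3.56% to 1.79%. SRRM2, a splicing factor gene with 8256 coding bases, had 1.33 and 1.57 events per kilobase.

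Host genes were counted in 12 lists of functionally related genes. As background, 0.389% of 20056 protein-coding genes in RefSeq had coding clusters in both replicates. Expression could not be matched, so the counts describe the lists and are not an enrichment. Actin and tubulin genes were listed in both replicates for 5 of 14 list members, ACTB, ACTG1, TUBB, TUBA1B and TUBA1C. For glycolysis it was 4 of 17 (GAPDH, PKM, ENO1 and ALDOA). For hnRNP and splicing factor genes it was 8 of 43, led by SRRM2 (11 and 13 events), SON (5 and 17), HNRNPA2B1 (9 and 10) and HNRNPU (6 and 8). The others were DDX17, HNRNPD, HNRNPH1 and SF3B3.

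Translation factors had 4 of 44 members in both replicates. Besides EEF2 and GNB2L1 these were EEF1A1 (6 and 17 events) and EEF1A2 (3 and 5), which encode forms of the factor that delivers aminoacyl-tRNA to the ribosome. Chaperones had 3 of 26, with CCT3, a subunit of the cytosolic chaperonin, at 6 and 11 events, HSPA8 at 2 and 6 and HSP90AB1 at 6 and 2. The MCM helicase list had MCM7 (2 and 4 events) of 9 members, the nucleolar list NCL (6 and 2) of 18, and the respiratory chain list NDUFA4 (2 and 2) of 38. That list is not complete: NDUFS8, a complex I subunit gene outside it, had 3 and 4 events, and was named after its values were seen.

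Of 22 aminoacyl-tRNA synthetase genes 4, and of 31 proteasome genes 3, had coding clusters in 1 replicate, beside 1.28% of all protein-coding genes. None of them had coding clusters in both, which at a background of 0.389% says little about lists of this size. Of 23 tRNA methyltransferase genes, TRMT10A alone was listed, in both replicates. Among 22 genes of the m6A machinery, PRRC2A and the demethylase gene ALKBH5 (3 and 12 coding events) were listed in both. FTO, IGF2BP1, YTHDF2 and ELAVL1 were listed in 1 replicate each.

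Fewer than 4 in 10 single sites were found again. Of the coding clusters of replicate 1, 87 (38.7%, 95% Wilson interval 32.5 to 45.2) shared at least 1 base with a cluster of replicate 2. Of those of replicate 2, 90 (20.1%, 16.6 to 24.0) did so in replicate 1. Both shares lay below the 71.4% and 56.3% of all listed clusters. At least 10 events were found in 778 and 885 of all listed clusters, but in 5 and 8 of the coding ones. Clusters in 3′ UTRs recurred at 32.8% (25 to 41.6) and 19.2% (14.5 to 25.1), within the intervals of the coding clusters.

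The recurring share was higher at sites with more events. At 2 events it was 25.6% of the coding clusters of replicate 1 and 8.92% of those of replicate 2. At 4 events the shares were 73.7% and 37.8%, and at 5 to 9 events 77.3% (17 of 22) and 61.0% (25 of 41). At 2 events the coding shares also lay below those of all listed clusters, 37.8% and 16.2%. This did not hold at every event count. All listed clusters had 63.8% and 47.5% at 4 events, and 74.9% and 65.0% at 5 to 9 events. The coding shares of replicate 1 lay above these values and those of replicate 2 below them. The Wilson intervals of coding and all listed clusters overlapped at 4 and at 5 to 9 events.

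**Figure D3:**
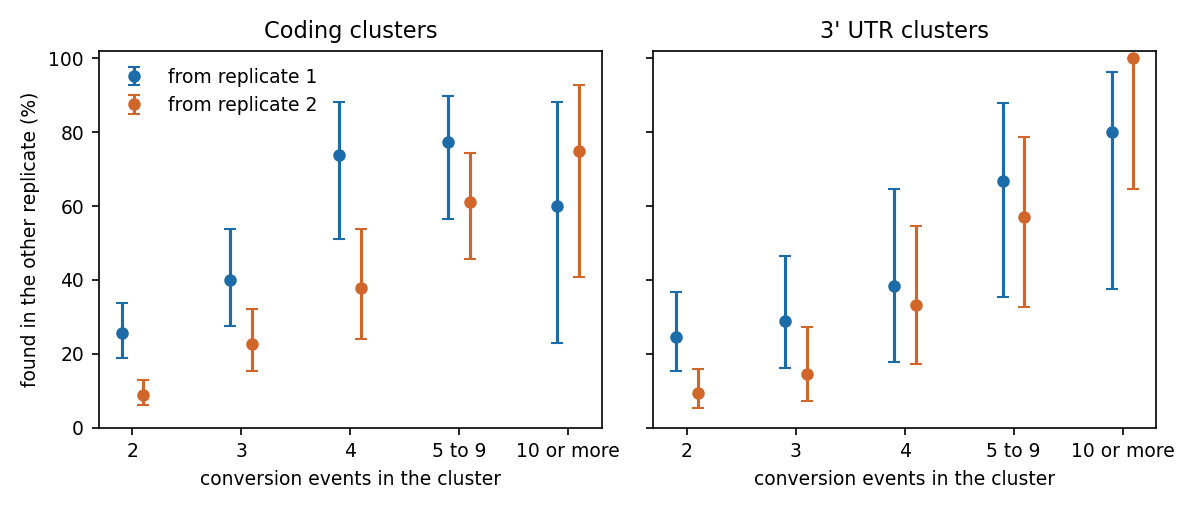
Share of coding clusters (left) and 3′ UTR clusters (right) that share at least 1 base with a cluster of the other replicate, by the number of conversion events in the cluster. Points are shares from replicate 1 (blue) and replicate 2 (orange) and bars are 95% Wilson intervals. Coding shares ran from 25.6% and 8.92% at 2 events to 77.3% and 61.0% at 5 to 9 events.

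Strong coding clusters did not all recur. Of those with at least 10 events, 3 of 5 from replicate 1 and 6 of 8 from replicate 2 recurred. The exceptions were the EEF2 cluster with 17 events and a TMED2 cluster with 11 events in replicate 1, and the GNB2L1 cluster with 11 events and an OBSL1 cluster with 21 events in replicate 2. TMED2 encodes a cargo receptor of the secretory pathway. Its cluster lay at coding positions 21 to 41. OBSL1 encodes a cytoskeletal adaptor, and its cluster lay at chr2:219570301-219570322 in exon 1 of 21. Neither TMED2 nor OBSL1 had any other coding cluster. They had the most coding events of the genes found in 1 replicate only. Next in replicate 1 were GSTP1, a glutathione transferase gene, and IRAK1, a kinase gene of interleukin-1 receptor signalling (5 events each). CTNNB1, which encodes beta-catenin, and the zinc finger gene KLF16 had 4 each. In replicate 2 they were SLC25A5, a mitochondrial ADP/ATP carrier gene (11 events), and ATF4, which encodes a stress-responsive transcription factor (10). FLNA, which encodes an actin crosslinker, had 8.

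Where coding clusters did overlap, their bounds rarely coincided. The 92 overlapping pairs joined 86 clusters of replicate 1 and 90 of replicate 2, with a median of 19 shared bases. Identical bounds were found in 1 pair, and the same start or end in 19. Replicate 2 had more events in 43 pairs, replicate 1 in 22, and 27 were equal. Across the pairs, log2 events had Pearson's r = 0.523 and Spearman's rho = 0.340, as a description over sites that share genes and libraries.

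In all, 78 genes had coding clusters in both replicates, 55.3% of those of replicate 1 (95% Wilson interval 47.1 to 63.3) and 28.7% of those of replicate 2 (23.6 to 34.3). Another 63 genes were found in replicate 1 alone and 194 in replicate 2 alone. Genes with at least 2 coding clusters were shared in 31 of 34 cases from replicate 1 and 45 of 66 from replicate 2. With a single cluster it was 47 of 107 and 33 of 206. Of the 78 shared genes, 50 (64.1%) had at least 1 overlapping pair of clusters. ENO1, TUBB, FASN, CCT3 and ALKBH5 were shared genes without any such pair. ENO1, a glycolytic enzyme, had 4 coding clusters in each replicate at different places.

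Across the 78 shared genes, log2 coding events had Pearson's r = 0.798 and Spearman's rho = 0.721, given as a description since the points share both libraries. Replicate 2 was higher in 48 genes, equal in 19 and lower in 11, and the median ratio of replicate 2 to replicate 1 was 1.33.

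**Figure D4:**
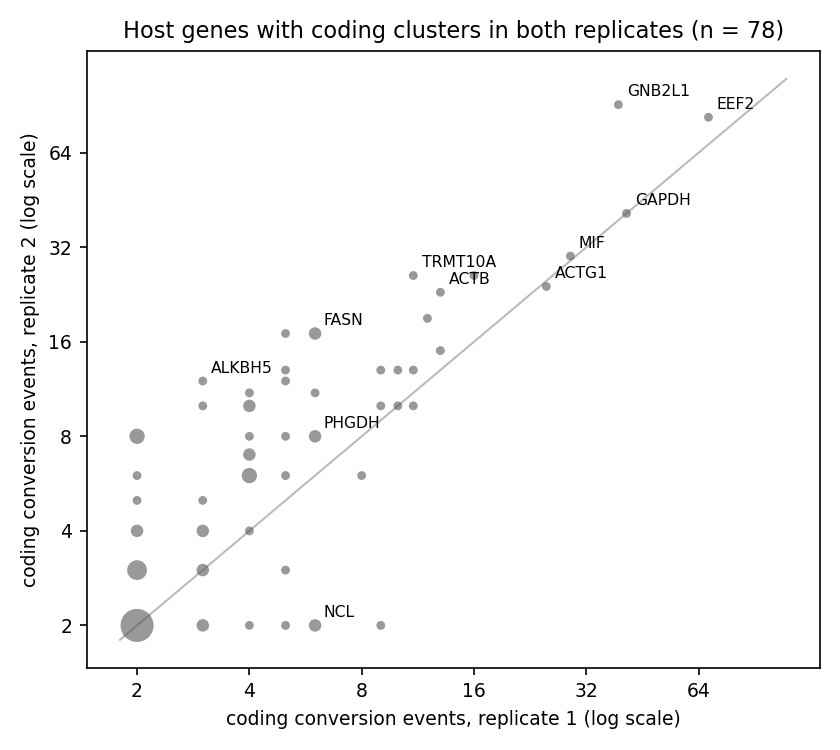
Conversion events in coding clusters of the 78 host genes found in both replicates, replicate 1 on the x axis and replicate 2 on the y axis, both on log scales. Larger points stand for several genes with the same pair of values, and the grey line marks equal counts. GAPDH lies on the line at 41 and 41, and GNB2L1 lies above it at 39 and 91.

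Clusters lay along the whole coding sequence. The cluster centre lay at a median of 47.8% of the way from start to stop codon in replicate 1 (215 clusters) and 48.6% in replicate 2 (428 clusters). With coding sequence cut into 3 equal parts, the first held 33.0% and 32.5% of clusters, the middle 39.1% and 35.0%, and the last 27.9% and 32.5%. Within 100 bases of the start codon lay 7.91% and 7.24% of clusters, beside 7.18% and 7.71% of the host coding sequence. Within 100 bases of the end of coding sequence lay 3.72% and 6.31%. Clusters across an exon boundary of the annotation, 6 in replicate 1 and 13 in replicate 2, were not placed. Of the 219 and 433 placed clusters, those reaching outside coding sequence were also left out here. Among them were the clusters of MIF and GNB2L1 that spanned the start codon, so the shares near the start codon do not count such clusters.

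**Figure D5:**
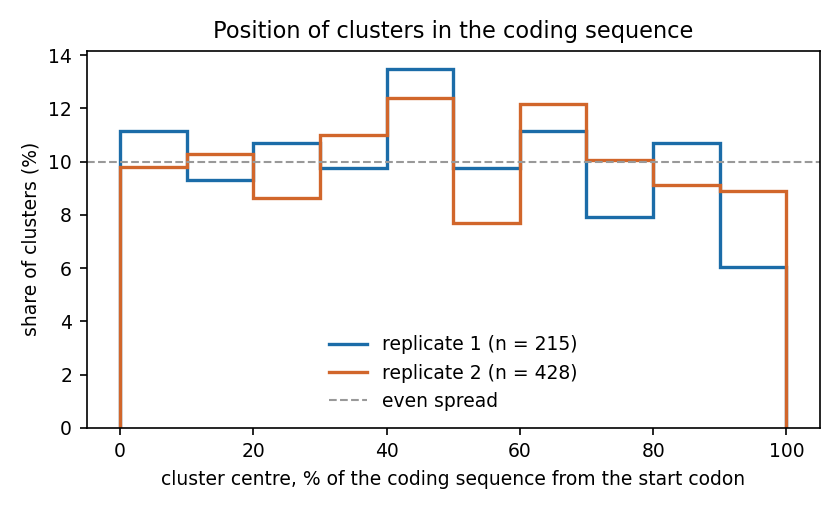
Position of cluster centres in the coding sequence, from start codon (0%) to stop codon (100%), in bins of 10%. Blue and orange lines are replicates 1 and 2 and the dashed line is an even spread. The medians were 47.8% and 48.6%. Only clusters wholly within coding sequence are counted.

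Coding clusters held more U and less A than the coding sequences around them. In replicate 1, U made up 23.7% of cluster bases and 20.3% of the host coding sequences, and A 18% and 23.3%. In replicate 2, U made up 23.7% and 20.6%, and A 18.8% and 24.1%. G was nearly the same (28.1% and 28.1% in replicate 1). At least 1 U was found in all 219 and all 433 placed clusters, while 98.5% of all windows of the same lengths in the same coding sequences hold one. Every listed cluster had at least 2 conversion events, which the windows need not have, and the labels do not name the converted base. Whether this raised the share of U, or of words with U, was not tested. U was frequent at both edges of the clusters. The first base was U in 33.3% and 30% of clusters and the last base in 36.1% and 36.5%, and the next base downstream was G in 42.0% and 39.3%. Both held together in 20.5% (95% Wilson interval 15.7 to 26.4) and 22.2% (18.5 to 26.3) of clusters, whereas UG made up 8.08% and 8% of adjacent base pairs in the host coding sequences. The 3′ UTR clusters had 27.6% and 23.0%, against 8.22% and 8.24% in their UTRs.

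Among all words of 4 bases, searched on the RNA strand, CUCU, UCGU and GACU had the largest excess in coding clusters over host coding sequences when the lower of both replicates was taken. They were chosen after their values were seen. CUCU was present in 26.9% of coding clusters of replicate 1 (59 of 219, 95% Wilson interval 21.5 to 33.2) and 31.2% of replicate 2 (135 of 433, 27.0 to 35.7). Of all windows of the same lengths in the same coding sequences, 10.3% and 9.98% hold it. GACU was present in 22.8% and 18.2% of clusters, against 7.75% and 7.92% of windows. UCGU was present in 9.13% and 8.08% of clusters, against 4.34% and 4.43% of windows. CUCU or GACU or both were found in 45.2% and 43.4% of clusters.

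Longer forms of CUCU and GACU, words already chosen from these clusters, were also counted. CUCUG was found in 13.2% of coding clusters of replicate 1 and 19.2% of replicate 2, beside 4.46% and 4.32% of windows. GGACU contains GACU and is a core form of the sequence methylated by the m6A writer complex. It was found in 11.9% of coding clusters of replicate 1 (26 of 219, 8.23 to 16.8) and 9.70% of replicate 2 (42 of 433, 7.26 to 12.9), beside 2.46% and 2.51% of windows. In the coding clusters of replicate 2 that overlapped nothing in replicate 1, CUCU was in 32.7% of 349 and GGACU in 8.88%, beside 9.75% and 2.56% of windows. These 349 are part of the 433 clusters from which the words were chosen, so they are no separate check. CUCU was in 24.7% of 85 recurring coding clusters of replicate 1 and 25% of 84 of replicate 2, beside 11.2% and 10.9% of windows. GGACU was in 12.9% and 13.1% of the recurring clusters, beside 2.34% and 2.28% of windows. The 3′ UTR clusters had CUCU in 42.2% and 30.9% (windows of their UTRs, 13.7% and 13.5%) and GGACU in 6.90% and 4.90% (windows, 2.47% and 2.32%). VIM, which encodes the intermediate filament protein vimentin, carries GACU at 2 places in the stretch printed above, and the leading GNB2L1 site carries CUCU. The GAPDH, MIF, PRRC2A and EEF2 stretches printed above have neither word. A match gives the letters in the cluster only and says nothing of what bound there.

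Some host genes have near-identical copies, so that their events could be split or shared. Of placed coding clusters of at least 20 bases, 11.2% in replicate 1 (19 of 170, 95% Wilson interval 7.27 to 16.8) and 16.9% in replicate 2 (59 of 349, 13.3 to 21.2) matched a transcript of another annotated gene without mismatch. In replicate 2, EEF1A1, ALDOA and TUBA1B had 4 such clusters each and GAPDH, TUBA1A and TUBA1C had 3 each. In replicate 1, MIF had 3. Every coding cluster of ALDOA, TUBA1C and HIRA, in both replicates, matched another gene. So did every coding cluster of EEF1A1 in replicate 1 and of TUBA1B and PTGES3 in replicate 2. The listing of all these genes in both replicates is therefore uncertain. The leading GAPDH, GNB2L1 and VIM clusters, the MIF cluster at the start codon and the examined EEF2 clusters had no such copy. The MIF site with 8 and 9 events and the PRRC2A site with 7 and 6 events each matched 1 other gene, so their reads cannot be assigned to MIF or PRRC2A with certainty. Annotated small RNA genes on the same strand overlapped 0 and 1 coding clusters, the latter a TPT1 cluster with 2 events at SNORA31. Transfer RNA genes of the nucleus were not among the gene types searched.

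Host genes often carried m6A peaks in the authors' deposited table. Of the host genes, 84.4% in replicate 1 (119 of 141, 95% Wilson interval 77.5 to 89.5) and 87.9% in replicate 2 (239 of 272, 83.5 to 91.2) had at least 1 listed peak. Of all 20056 RefSeq protein-coding genes it was 44.6%. Expression and transcript length were not matched, and their part in this difference was not tested. Among the 78 genes shared by the replicates the share was 84.6%, compared with 84.1% and 89.2% of those found in replicate 1 or 2 alone. GNB2L1 and TRMT10A were among the host genes without a listed peak.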

How the data were processed

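CLIP clusters of TRMT10A were read from the 2 deposited tables of HEK293T cells, matched to samples by the replicate number in the title. Per the file headers, the authors deposited raw counts: the conversion events of a cluster and the clusters of each line. Coordinates are hg38, per the submitters' processing notes, which also name TopHat2 and Cuffdiff with no role. No label names the cluster caller or its thresholds. From the m6A table only gene identifiers were taken; its log2 enrichment ratios, as deposited by the authors, were not used.

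Symbols turned into dates were restored through gene identifiers (2 genes). Replicates were matched at 1 shared base on the same strand. Clusters were placed in single exons of GENCODE release 29 transcripts, by accession and otherwise by symbol, 219 of 225 and 433 of 448. Bases were compared with every position, and words with every window of the same length, in the host coding sequences. Named genes were TRMT10A, the 20 genes of highest mean rank of coding events, the 5 with most clusters, the leading recurring and longest clusters, the leading genes of a single replicate, and up to 4 members per gene list found in both. Some genes that this rule names are not reported here. Members, lists and rules were chosen with earlier results of these data known. Wilson intervals (95%) for shares reflect counting error alone, since no molecular identifiers are given and events need not be independent molecules. Matching was tested on simulated data (400 of 1000 made to overlap, 400 found). Python 3.11.15, numpy 2.4.6 and matplotlib 3.10.9 were used.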

Additional observations from a re-analysis of the deposited data

How the results depend on the processing

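A typical coding cluster had 2 events, the lowest listed. Of 66 values recomputed, 37 stayed within the replicate spread or interval (for counts, within 1.5 times) and 29 moved. The causes were not tested. Some of the 37 could not have moved. Leaving out a replicate cannot take medians or the single-cluster share beyond a spread computed from the same replicates. The median position had the same placements under its other setting. The tally is therefore no measure of robustness. At least 3 and at least 5 events left a mean of 137.5 and 38 coding clusters, with median events of 3 and 6 and 72.2% and 79.2% of host genes with a single cluster. Site recurrence then was 56.3% and 74.1% from replicate 1, and 36.9% and 63.3% from replicate 2, against clusters of any event count. Gene recurrence, with the minimum in both replicates, was 60.0% and 55.6% from replicate 1 and 33.6% and 32.3% from replicate 2, so that only from replicate 1 at 3 events did it stay above site recurrence, as it was without a minimum. With symbols beginning RPL, RPS or HIST kept, the median length was 27.5 bases and single-cluster genes 69.2%. Site recurrence was then 45.5% and 26.7%, and gene recurrence from replicate 2 36.7%. Single-cluster genes were 76.2% without TRMT10A and 75.6% for clusters whose every line was coding in 1 gene. Overlap of at least 50% of both clusters gave 30.2% and 15.0% site recurrence, and extension by 50 bases 46.2% and 27.2%. With replicate 2 reduced to its 225 coding clusters of most events, site recurrence was 29.8% and 30.7% and gene recurrence 38.3% and 37.0%. Without the 10 leading host genes, chosen after seeing the data, site recurrence was 26.9% and 12.2% and single-cluster genes 80.2%; CUCU was then in 29.4% of clusters and GGACU in 11.9%, beside 29.1% and 10.8%. The mean U share over clusters was 24.9%. Leaving out a replicate gave 225 to 448 clusters, medians of 26 bases and 2 events, and 75.7% to 75.9% single-cluster genes. No paired analysis was possible because the CLIP replicates form 1 group.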
